A study of Homo sapiens with 6 samples.

Results

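The genes described here are those whose symbol begins with LINC or SNHG and a number, together with GAS5, MALAT1 and NEAT1, in C4-2B cells. LINC is the naming scheme for intergenic long noncoding RNAs, and SNHG stands for small nucleolar RNA host gene. C4-2B is a cell line of human prostate cancer that came from LNCaP and forms bone metastases. Members were chosen by name alone, and a member was counted where its level was 1 or more in either library of a pair. In all, 184 genes met this in at least 1 pair, of 337 listed at any level. They were 17 SNHG genes with GAS5 among them, MALAT1 and NEAT1, 149 LINC genes, and 16 genes with a LINC name that RefSeq now lists as protein coding. In the SR2211 pair 102 of 268 listed members passed (of 12155 genes that did), in the XY011 pair 138 of 259 (of 12620), and in the ENZ pair 110 of 142 (of 19276). Members at 1 or more in every pair numbered 65.

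RNA-seq had been carried out on 6 poly(A)-selected libraries in 3 experiments, each with 1 vehicle library and 1 treated library. The cells stood in RPMI with mostly charcoal-stripped serum, a medium meant to resemble castration-resistant growth, and all groups shared it. They received vehicle, 5 µM SR2211, 5 µM XY011 or 20 µM enzalutamide (ENZ) for 48 h. SR2211 is an inverse agonist of a nuclear receptor, XY011 is known here only by its code, and ENZ is an antiandrogen used against prostate cancer. The extraction text names XY018 in place of XY011 for the first 2 experiments and SR2211 for the ENZ experiment, so groups follow the titles. The SR2211 table is in RPKM (reads scaled for gene length and mapped reads) and the XY011 and ENZ tables are in FPKM (the same scaling for fragments). Changes are given as log2((treated + 1)/(vehicle + 1)) within a pair, and a call of higher or lower needs a change of at least 1 on this scale. This is a rule of size with no p-value, since 1 library per group leaves no replicate check.

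The values of microRNA genes put the SR2211 pair at 8.20 to 8.21 M (vehicle) and 8.15 to 8.18 M (SR2211) mapped reads. The read numbers behind the other pairs were largely not recoverable. All 10 markers of prostate luminal epithelium, such as KLK3 and KRT8, were listed in every table. They summed to 3151 and 1289 RPKM (vehicle and SR2211), 3162 and 1368 FPKM (vehicle and XY011) and 5491 and 3368 FPKM (vehicle and ENZ), and 6, 6 and 4 of the 10 were called lower. Summed markers of basal epithelium, endothelium and neuroendocrine cells lay below 5 in each library. Those of leukocytes lay between 4.72 and 13.3 and those of fibroblasts between 2.00 and 44.6. The leukocyte sums were nearly all CD68, and CD3E was listed in no table. In the SR2211 and XY011 pairs the fibroblast sums were nearly all COL1A1, and COL1A2 and DCN were not listed. In bulk RNA a smaller number of cells expressing a gene and less of its RNA per cell cannot be told apart.

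Long noncoding RNAs are transcripts with little or no coding capacity that are capped, and mostly spliced and polyadenylated, like mRNA. MALAT1 is an abundant nuclear RNA found in nuclear speckles, and NEAT1 is the scaffold of paraspeckles, nuclear bodies that hold RNA-binding proteins such as NONO and SFPQ. SNHG genes and GAS5 carry small nucleolar RNAs (snoRNAs) in their introns. These snoRNAs guide chemical modification of ribosomal RNA, while the spliced exons are often degraded by nonsense-mediated decay when ribosomes read them. Many host genes begin transcription with a run of pyrimidines, the terminal oligopyrimidine start that ties translation to growth signals, and GAS5 was named for its accumulation in growth-arrested cells.

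RefSeq (GRCh38.p14) held a promoter entry, 250 bases before to 50 bases after the gene start, for 136 of the 184 members. The promoters of LINC01133 and LINC00161 are shown because LINC01133 had the largest increase of any member with SR2211 and XY011 and LINC00161 was called lower in all 3 pairs. Capitals mark TGATGNAA, the composite site of the stress factors ATF4 and CHOP, which was searched on both strands.

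LINC01133, chr1:159960974-159961273, plus strand: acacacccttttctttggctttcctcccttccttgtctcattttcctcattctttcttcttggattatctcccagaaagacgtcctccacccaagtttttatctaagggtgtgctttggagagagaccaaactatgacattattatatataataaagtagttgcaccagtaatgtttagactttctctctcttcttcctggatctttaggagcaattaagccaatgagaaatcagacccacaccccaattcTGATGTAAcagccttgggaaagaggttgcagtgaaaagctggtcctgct

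LINC00161, chr21:28539068-28539367, plus strand: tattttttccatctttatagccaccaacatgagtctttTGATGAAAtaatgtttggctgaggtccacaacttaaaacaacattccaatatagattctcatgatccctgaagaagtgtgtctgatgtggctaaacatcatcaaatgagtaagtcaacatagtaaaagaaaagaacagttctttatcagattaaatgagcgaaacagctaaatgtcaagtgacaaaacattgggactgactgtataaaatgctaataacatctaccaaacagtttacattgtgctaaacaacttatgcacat

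The motif began at position 2 of the LINC01133 transcript, counted from its start, and 212 bases before the start of LINC00161. With the first listed start of each gene, it was present in 3.67% of all 27305 promoters of the same length and in 6 of the 136 member promoters (4.41%). Counted in the same way on both strands, the other letters searched were CACGTG (an E-box, in 12 of 136 members and 7.43% of all promoters), TAGGTCA (6 members, 1.87%) and TGGGTCA (5 members, 3.89%), both cores of the element bound by ROR receptors, and TTTCCCGC (an E2F site, 2 members, 1.66%). The full palindromic androgen response element was in no member promoter and in 1 of the 27305. A match is a description of the letters and not a sign of binding.

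The first 20 transcribed bases are shown for SNHG genes that began with C and a run of at least 4 C or T bases. The run is unbroken and in capitals, and it is shown because many host genes begin in this way.

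SNHG4, chr5:139274101-139274120, plus strand: CCCTTTCCCCTCCggcctct

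SNHG5, chr6:85678714-85678733, minus strand: CTTTTacgtcggccttcgcg

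SNHG7, chr9:136728165-136728184, minus strand: CTCTgcgtgcgccggaggct

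SNHG12, chr1:28581854-28581873, minus strand: CCTTTCTCCCCgccgcattc

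Such a start was found in 4 of the 14 SNHG and GAS5 entries and in 5.45% of all promoters. The run was 13 bases long in SNHG4 and 11 in SNHG12. At the listed starts of GAS5 and SNHG1 it was 0 and 3 bases long.

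The nuclear RNAs MALAT1 and NEAT1 were higher with SR2211 and with XY011. MALAT1 stood at 267 RPKM in vehicle and 1494 RPKM with SR2211, at 108 and 725 FPKM in the XY011 pair, and at 163 and 248 FPKM in the ENZ pair. Its log2 change was 2.48 with SR2211, 2.73 with XY011 and 0.60 with ENZ. In both libraries of the SR2211 pair it was the member with the highest level. NEAT1 stood at 58.8 and 263 RPKM in the SR2211 pair, at 28.0 and 77.1 FPKM in the XY011 pair and at 124 and 131 FPKM in the ENZ pair, with log2 changes of 2.14, 1.43 and 0.07. Both genes thus passed the size rule with SR2211 and XY011 and not with ENZ. The smallest whole read numbers that give the NEAT1 values of the SR2211 pair were 1811 and 8072, a ratio of 4.48 (exact 95% interval 4.25 to 4.71, counting error only). The vehicles differed from each other as well, and MALAT1 was lower in the XY011 vehicle than in the SR2211 vehicle by a log2 difference of -1.30 across tables that were normalised separately.

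GAS5, the host of 11 annotated snoRNA genes, moved in opposite directions. Its level was 105 RPKM in vehicle and 273 RPKM with SR2211, and 105 and 429 FPKM in the XY011 pair. In the ENZ pair it was 915 FPKM in vehicle and 310 FPKM with ENZ. The log2 changes were 1.37, 2.02 and -1.56. At least 561 and 1451 reads lay behind the SR2211 values, a ratio of 2.60 (2.36 to 2.87). GAS5 was the highest of all members in the ENZ vehicle, ranking 188 among 19276 genes there, against rank 600 of 12155 in the SR2211 vehicle and 648 of 12620 in the XY011 vehicle.

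**Figure D1:**
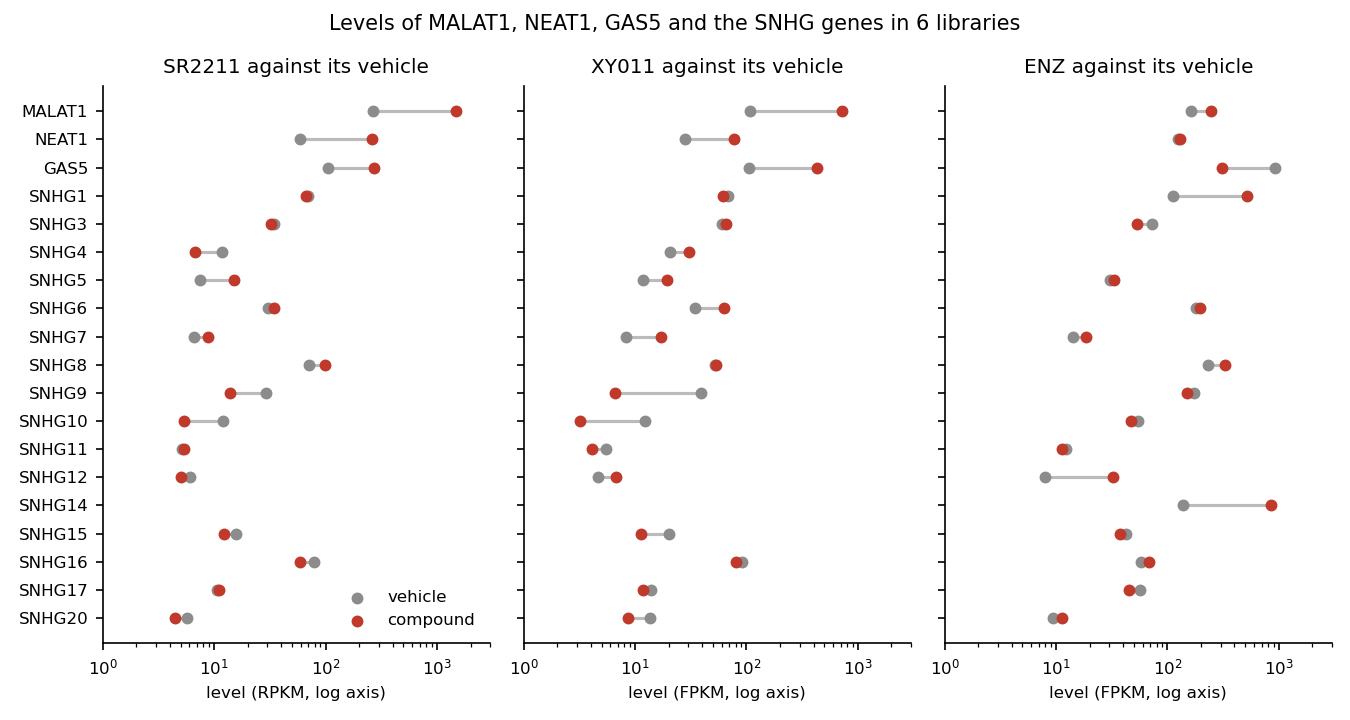
Levels of MALAT1, NEAT1, GAS5 and the SNHG genes on a log axis, in RPKM (SR2211 pair) and FPKM (XY011 and ENZ pairs), with 1 grey point for the vehicle library and 1 red point for the treated library. MALAT1, NEAT1 and GAS5 lie to the right of vehicle with SR2211 and XY011, and with ENZ GAS5 lies to the left (915 to 310 FPKM) while SNHG1, SNHG12 and SNHG14 lie to the right.

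These 3 genes made up much of the members' summed level. MALAT1, NEAT1 and GAS5 together held 31.9% of the members' RPKM in the SR2211 vehicle and 68.8% with SR2211, as the sum over all members went from 1353 to 2953 RPKM. In the XY011 pair they held 15.7% and 52.5% (sums of 1535 and 2342 FPKM). In the ENZ pair the share was 35.5% in vehicle and 16.8% with ENZ, while the sum went from 3382 to 4100 FPKM. The median member was at 3.18 and 3.33 RPKM in the SR2211 pair, 3.04 and 2.19 FPKM in the XY011 pair and 3.83 and 4.14 FPKM in the ENZ pair, so most members lay well below these 3 genes.

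Paraspeckle proteins, a list of 13 genes, were read beside NEAT1. NEAT1 had 1 value per poly(A)-selected library, so different forms of its transcript could not be told apart. Paraspeckles themselves were not measured. In the SR2211 pair 4 of 13 were called lower and none higher, with a median log2 change of -0.60, where 5.75% of all genes were called lower and the median gene was at -0.07. SFPQ, a core paraspeckle protein, was at 146 and 47.6 RPKM, and RBM14 and EWSR1 were also called lower. With XY011 4 of 13 were lower (median -0.77; 13.2% of all genes lower, median -0.14), among them SFPQ at 98.6 and 18.2 FPKM, TARDBP and EWSR1. NONO was at 201 and 180 RPKM with SR2211 and 235 and 209 FPKM with XY011, short of the size rule. With ENZ none of the 13 passed (median -0.12, against 8.35% of all genes past the rule in either direction), and SFPQ stood at 118 and 102 FPKM.

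The remaining SNHG genes mostly stayed short of the size rule with SR2211. Of 16 SNHG genes with GAS5, 1 was called higher (GAS5) and 2 lower, where 5.10% of all genes were higher and 5.75% lower. SNHG9, the host of SNORA78, was at 29.0 and 13.8 RPKM (log2 -1.01, at least 82 and 39 reads, ratio 0.478, interval 0.318 to 0.708). SNHG10 was at 12.1 and 5.32 RPKM (log2 -1.05, at least 98 and 43 reads, ratio 0.441, interval 0.301 to 0.637). Both sit just inside the size rule, and with each library centred on its median gene neither passed it. SNHG16, the host of SNORD1A to SNORD1C, was at 78.7 and 58.6 RPKM. With at least 1637 and 1215 reads its ratio of 0.746 had an interval below 1 (0.692 to 0.803), as did SNHG4 at 11.9 and 6.68 RPKM (ratio 0.563, 0.404 to 0.780). SNHG8, the host of SNORA24, was at 71.0 and 99.2 RPKM, with a ratio of 1.40 (1.22 to 1.60). SNHG20 was at 5.75 and 4.49 RPKM, 13.7 and 8.56 FPKM with XY011 and 9.45 and 11.4 FPKM with ENZ. For SNHG1, SNHG3, SNHG6, SNHG11, SNHG12, SNHG15 and SNHG17 the interval included 1.

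With XY011 the same 2 genes were lower by more. SNHG9 was at 38.9 and 6.66 FPKM (log2 -2.38) and SNHG10 at 12.2 and 3.18 FPKM (log2 -1.66). GENCODE 29 places SNHG10 across exons of GLRX5 on the opposite strand, and whether counting used strand is unknown here, so reads of the pair cannot be told apart. GAS5 was again the single member of this group called higher, of 16, beside 7.59% of all genes. SNHG7 at 8.30 and 17.2 FPKM (log2 0.97), SNHG6 at 34.2 and 63.2 FPKM (0.87) and SNHG5 at 11.9 and 19.5 FPKM (0.68) stayed short of the rule. The largest negative value short of it was that of SNHG15, at 20.0 and 11.3 FPKM (-0.78). Of the 4 genes with a pyrimidine start shown above, SNHG5 and SNHG7 had positive values in all 3 pairs, and SNHG4 and SNHG12 had negative values with SR2211 and positive ones with XY011.

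With ENZ the SNHG genes that passed were other ones. SNHG1, which holds 9 annotated snoRNA genes, was at 113 FPKM in vehicle and 523 FPKM with ENZ (log2 2.21, rank 34 of 19276 among increases). SNHG12, the host of SNORD99, SNORA16A, SNORA44 and SNORA61, was at 7.99 and 32.7 FPKM (log2 1.91). In the other pairs SNHG1 was at 69.3 and 66.8 RPKM with SR2211 and 68.0 and 61.9 FPKM with XY011. SNHG14, a long transcript of the Prader-Willi region that runs antisense to UBE3A, was listed in the ENZ table alone and on 2 lines. The lines read 23.7 and 677 FPKM and 113 and 167 FPKM, so that the summed log2 change of 2.61 came mainly from the first. GENCODE 29 lists exons of SNRPN across SNHG14 on the same strand and of UBE3A on the opposite one, and their reads could not be told apart. The same holds for SNHG3 with RCC1, SNHG4 with MATR3 and SNHG20 with SEC14L1, which share exons on the same strand. It also holds for SNHG12, which lies across exons of TRNAU1AP on the opposite strand. SNHG6 (MCMDC2), SNHG7 (FAM69B), SNHG16 (AC015802.6), SNHG4 (SIL1) and GAS5 (GAS5-AS1) likewise lie across exons of the gene in brackets on the opposite strand. SNHG8 at 229 and 327 FPKM (0.51) and SNHG6 at 180.0 and 197 FPKM were high in both libraries, and SNHG9 (172 and 149 FPKM) and SNHG10 (54.6 and 46.8 FPKM) were not called. In all 3 SNHG genes were higher and GAS5 lower, of 16, where 3.68% and 4.67% of all genes were called.

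In the ENZ table SNORD78, which lies in GAS5, was at 395 FPKM in vehicle and listed at 0 with ENZ. Within SNHG14, SNORD116-6 (249 FPKM) and SNORD116-18 (149 FPKM) were also listed at 0 with ENZ, while SNORD64 was at 4.09 and 82.1 FPKM. How reads were divided between host and snoRNA is not given in the sources used here, and the part this plays in the values of GAS5 and SNHG14 was not tested. SNORD76 of GAS5 was at 9.03 and 18.1 RPKM with SR2211 and at 4.94 and 40.0 FPKM with XY011. SNORD47, in the same gene, was at 12.7 and 12.7 RPKM and at 48.8 and 25.1 FPKM. SNORD79 of GAS5 was at 4.52 and 3.02 RPKM with SR2211. SNORD79, SNORD77 and SNORD74 were at 19.8, 8.89 and 6.18 FPKM in the XY011 vehicle. With XY011 each stood at 0.001 FPKM, the placeholder for no reads, and SNORD80 was at 12.7 and 7.36 FPKM. The GAS5 snoRNAs listed summed to 26.2 and 33.9 RPKM with SR2211 (3 listed) and 101 and 72.5 FPKM with XY011 (6 listed).

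Host genes outside the SNHG names served as a second list of 27. With SR2211, 1 was higher and 2 lower (median log2 0.29), beside 5.10% and 5.75% of all genes and a median of -0.07. With XY011, 4 were higher and 4 lower (median 0.43), beside 7.59% and 13.2% and a median of -0.14. With ENZ 1 was higher and 1 lower (median 0.01), beside 3.68% and 4.67% and a median of -0.02. EIF4A2, a translation initiation helicase whose introns hold snoRNAs, was higher in each pair at 103 and 319 RPKM, 86.7 and 361 FPKM, and 187 and 412 FPKM. The nucleolar protein genes NOP56 (105 and 37.3 RPKM; 124 and 33.1 FPKM) and NCL (468 and 222 RPKM; 450 and 170 FPKM) were lower with SR2211 and XY011. Among noncoding hosts of the list, ZFAS1 was at 41.1 and 71.3 RPKM and at 83.6 and 208 FPKM (log2 0.78 and 1.30), while DANCR was at 359 and 209 RPKM and at 418 and 180 FPKM (-0.78 and -1.21). Of 10 nonsense-mediated decay factors none passed with SR2211 (median -0.17) or XY011 (median 0.13), where 10.9% and 20.8% of all genes did. With ENZ, SMG9 did, at 4.15 and 12.4 FPKM, beside 8.35% of all genes.

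LINC01133 had the largest increase of any member with SR2211 and with XY011. It was at 2.01 RPKM in vehicle and 35.0 RPKM with SR2211, and at 1.39 and 35.9 FPKM in the XY011 pair. The log2 changes of 3.58 and 3.95 ranked 7 of 12155 and 4 of 12620 among increases over all genes. At least 19 and 330 reads lay behind the SR2211 values, a ratio of 17.4 (11.0 to 29.4). It had no line in the ENZ table, which listed only genes seen in its vehicle library.

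The other LINC genes called higher with SR2211 were low throughout. LINC00659 was at 1.38 and 5.21 RPKM, LINC00673 at 0.697 and 3.45 RPKM and LINC00341 at 0.687 and 2.54 RPKM. Their smallest read numbers in vehicle were 4, 13 and 16, and the intervals of the ratios (1.20 to 15.6, 2.70 to 9.79 and 2.10 to 6.90) lay above 1. With XY011 the same genes were at 1.33 and 2.40, 1.30 and 2.70, and 0.480 and 1.93 FPKM, all short of the rule. The LINC genes that XY011 added were LINC01194 (0.100 and 1.77 FPKM), and LINC00441, LINC00623 and LINC01021, which stood at the placeholder for no reads in vehicle and at 1.56, 1.02 and 1.10 FPKM with XY011. LINC01021 is PURPL, a transcript induced by p53.

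LINC00161 was the member called lower in all 3 pairs. It was at 8.87 and 1.81 RPKM with SR2211 (log2 -1.81, at least 64 and 13 reads, ratio 0.204, interval 0.103 to 0.374). In the XY011 pair it was at 6.32 FPKM in vehicle and at the placeholder for no reads with XY011. In the ENZ pair it was at 10.3 and 2.24 FPKM (log2 -1.80). Every treated library thus lay below every vehicle library, across tables that were normalised separately. LINC00930 was at 6.85 and 1.04 RPKM (log2 -1.94, ratio 0.152, interval 0.0464 to 0.392), at 2.83 and 0.600 FPKM with XY011 (-1.26) and at 3.81 and 1.74 FPKM with ENZ (-0.81), short of the rule. LINC01128 was at 8.10 and 1.81 RPKM (-1.70) and at 10.2 and 2.99 FPKM (-1.49), and was not in the ENZ table. It shares exons on the opposite strand with LINC00115 and AL669831.3, whose reads could not be told apart from its own.

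**Figure D2:**
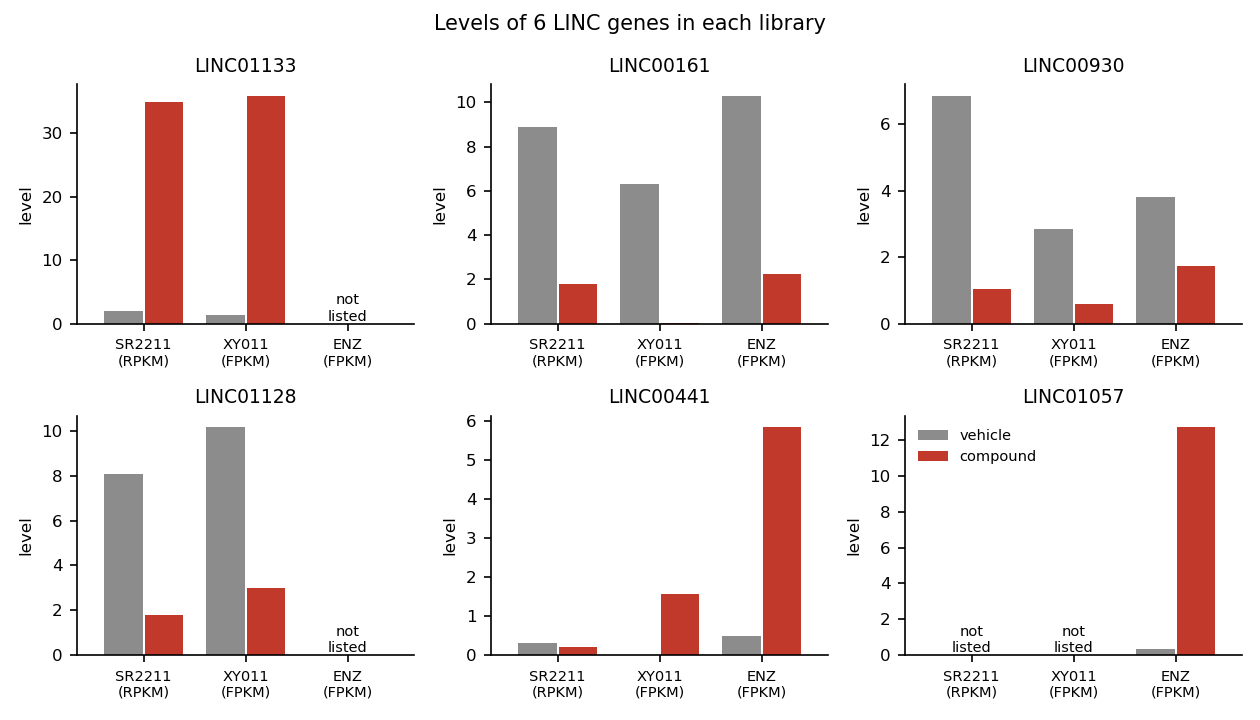
Levels of 6 LINC genes in the 6 libraries, as bars from 0 in RPKM (SR2211 pair) and FPKM (XY011 and ENZ pairs), with vehicle in grey and compound in red and 1 library per bar. LINC01133 stands at 35.0 RPKM and 35.9 FPKM with SR2211 and XY011, and LINC00161 is lower with the compound in all 3 pairs.

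In all, SR2211 left 7 members higher and 5 lower of 102, or 11.8%, beside 10.9% of all 12155 genes past the rule, and the median member was at -0.04. The share was near the background. Smallest read numbers could be worked out for 92 members of this pair. At these numbers the interval of the ratio lay above 1 for 16, below 1 for 18 and included 1 for 58. For 31 of the 92 the smallest number in vehicle was under 20. The true numbers can be larger, which would narrow the intervals. LINC01123, at 12.2 and 5.84 RPKM (log2 -0.95, ratio 0.476, interval 0.380 to 0.594), and LINC00571, at 0.234 and 1.41 RPKM (0.97), lay just outside the rule.

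With XY011 27 of 138 members were lower (19.6%) and 8 higher (5.80%), beside 13.2% and 7.59% of all genes (20.8% together), with a member median of -0.33. Most of these were LINC genes, of which 25 of 108 were lower (23.1%). By the level of the higher library, the share lower was 18.9% of 37 members at 1 to 2 FPKM (10.2% of all genes in that range), 18.2% of 44 at 2 to 5 (12.7%), 23.7% of 38 at 5 to 20 (13.1%) and 15.8% of 19 at 20 or more (14.3%). The largest decreases with reads in both libraries were LINC01138 at 8.16 and 0.630 FPKM (log2 -2.49), SNHG9, LINC00839 at 9.89 and 1.69 FPKM (-2.02) and LINC00314 at 9.98 and 1.81 FPKM (-1.97). LINC01138 shares exons with AC245100.9 on the same strand and with other genes on the opposite strand, whose reads could not be told apart from its own. LINC01235 was at 3.23 and 0.450 FPKM, LINC00909 at 2.14 and 0.120 FPKM and LINC01189 at 1.74 FPKM and the placeholder. For 6 of the 27 the treated library stood at the placeholder. Of the 17 that were also measured with SR2211, 16 had a negative value there, with a median of -0.59. The same share among all genes called lower with XY011 was not worked out. Of all 11637 genes measured in both pairs, called or not, 79.4% had the same sign. Scaling moved the balance of calls in this pair, from 8 higher and 27 lower to 13 and 24 with each library centred on its median gene, and to 15 and 20 with quantile scaling. The shares of all genes under these scalings are not given here.

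LINC00987 shows how far the tables can differ. It was the member with the highest level in the XY011 vehicle, at 134 FPKM (62.7 FPKM with XY011), and stood at 0.0494 RPKM in the SR2211 vehicle and 2.31 FPKM in the ENZ vehicle. GENCODE 29 lists exons of A2MP1 and PTMAP4, a pseudogene of prothymosin alpha, across it on the opposite strand. Between the SR2211 and XY011 vehicles 31 of 128 members (24.2%) differed by the size rule, 24 of them higher in the XY011 vehicle, beside 11.0% of 12504 genes. This difference between vehicles spans separate experiments and tables, and its part in the XY011 count was not tested.

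**Figure D3:**
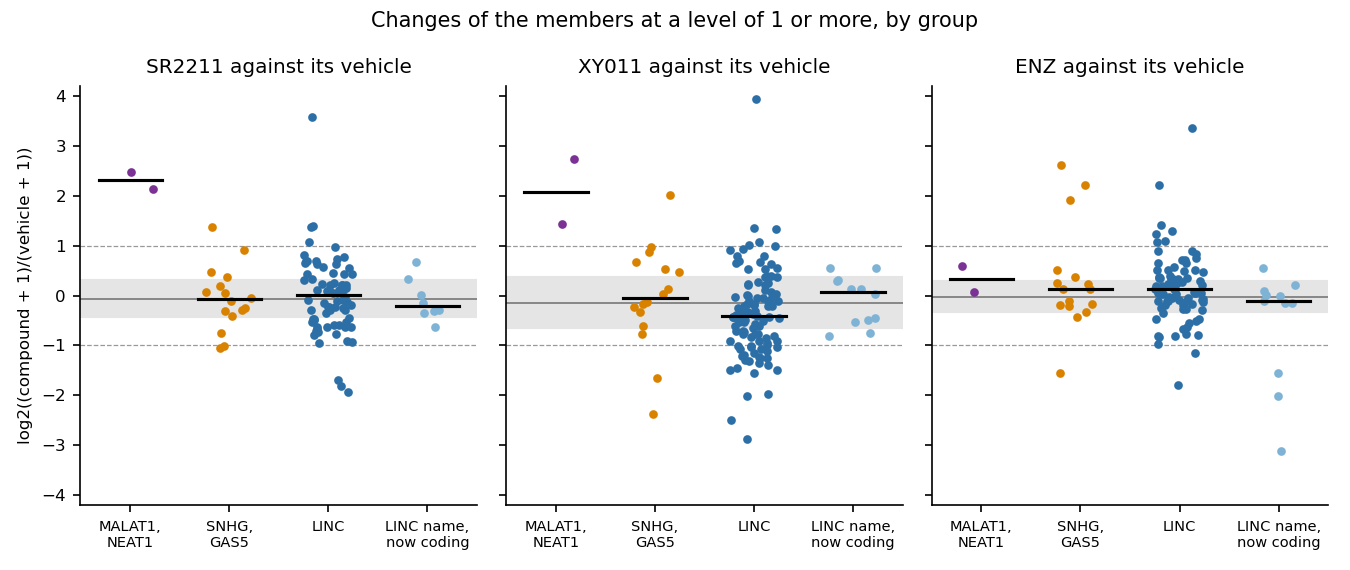
Change of each member at a level of 1 or more, as log2((compound + 1)/(vehicle + 1)), by group and pair, with 1 point per gene and a black bar at the group's median. The grey band spans the middle quartiles of all genes tested, the grey line is their median and dashed lines mark the size rule, and LINC genes sit lower with XY011 (median -0.42) than in the other pairs (0.01 and 0.12).

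With ENZ 10 of 110 members were higher (9.09%) and 6 lower (5.45%), beside 3.68% and 4.67% of all genes, with a member median of 0.08. LINC01057, now SLC44A3-AS1, was at 0.339 and 12.7 FPKM (log2 3.36, rank 7 of 19276 among increases). LINC00441, now RB1-DT and divergent from the tumour suppressor RB1, was at 0.474 and 5.83 FPKM (2.21). It was the member called higher with both ENZ and XY011, at 0.307 and 0.206 RPKM in the SR2211 pair. LINC00537 was at 5.44 and 14.1 FPKM, LINC01060 at 0.200 and 2.20, LINC00365 at 0.138 and 1.78, LINC00992 at 1.61 and 4.51 and LINC00937 at 0.242 and 1.65 FPKM. These 5 lay between log2 1.07 and 1.41. At least 25 and 62 reads lay behind LINC00537 (ratio 2.60, interval 1.61 to 4.31), and at least 3 and 8 behind LINC00992 (ratio 2.79), whose interval of 0.670 to 16.3 included 1. In this pair such numbers were found for only 18 of 106 members searched and 27.5% of sampled genes. The transcript length they imply was not checked, so they are less sure than those of the SR2211 pair.

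The lower members with ENZ were GAS5, LINC00161 and 4 others. LINC00854 was at 7.70 and 0.00771 FPKM and shares exons on the opposite strand with TMEM106A. LINC00634, now the small membrane protein gene SMIM45, was at 11.4 and 3.21 FPKM (log2 -1.56). LINC00571 was at 2.85 and 0.734 FPKM (-1.15). LINC00444 was at 3.04 FPKM in vehicle and listed at 0 with ENZ. LINC00649, at 5.99 and 2.58 FPKM (-0.97), lay just outside.

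Among the 89 members measured with both SR2211 and XY011, 64 had the same sign in both pairs, or 71.9%, where 9235 of 11637 genes did (79.4%). As a description, Pearson's r was 0.81 and Spearman's rho 0.69 over these 89 genes, which share their libraries, beside 0.79 and 0.76 over the 11637. Over the members r was 0.68 without MALAT1, NEAT1, GAS5 and LINC01133. The 4 genes just named were higher in both pairs, out of 7 with SR2211 and 8 with XY011 (4.49% of the 89, beside 3.25% of the 11637 genes). LINC00161, LINC00930, LINC01128, SNHG9 and SNHG10 were lower in both, which is all 5 called with SR2211 and 5 of the 27 called with XY011 (5.62% of the 89, beside 4.58% of the 11637 genes). For 13 of the 89 (14.6%) the changes with SR2211 and XY011 lay 1 or more apart (log2), as they did for 6.04% of the 11637 genes, a difference with no replicate check. It was widest for LINC01137 (0.58 with SR2211 and -0.91 with XY011) and LINC00839 (-0.53 and -2.02). No member was higher in all 3 pairs.

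**Figure D4:**
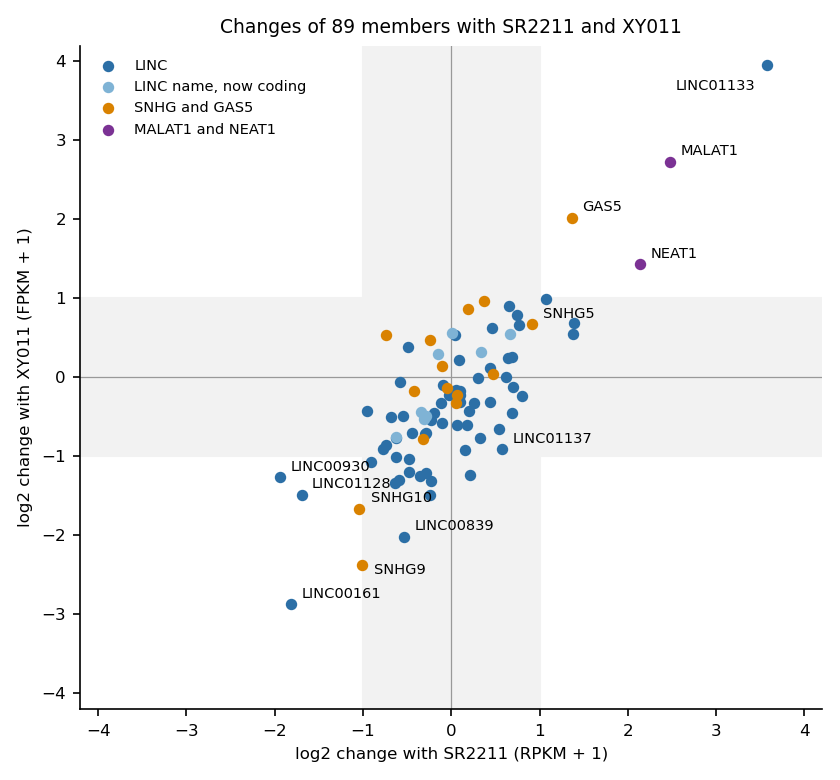
Log2 change with SR2211 (horizontal, RPKM + 1) against that with XY011 (vertical, FPKM + 1) for the 89 members measured in both pairs, with 1 point per gene and the range inside the size rule shaded. LINC01133, MALAT1, NEAT1 and GAS5 stand at the upper right and LINC00161, LINC00930, LINC01128, SNHG9 and SNHG10 at the lower left.

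A limma fit over the 4 libraries of these pairs, with the experiment as a block, treated SR2211 and XY011 as replicates of 1 class. It has 1 residual degree of freedom, which is how far apart the SR2211 and XY011 changes of a gene lie. To this limma adds a prior of 5.29 degrees of freedom drawn from all genes fitted. Most of the weight in each SE and p-value thus lies on that prior. Spread between cultures enters only together with differences between the 2 compounds and their experiments, and the fit cannot separate these. At a Benjamini-Hochberg adjusted p of 0.05, 11 of 109 members rose and 11 fell, or 20.2% together, beside 8.93% and 13.3% of 12067 genes (22.3% together), and 37 members (33.9%) had an unadjusted p under 0.05, beside 39.4% of the genes. Shared log2 changes were 3.77 for LINC01133 (SE 0.21, limma adjusted p = 0.00247), 2.60 for MALAT1 (SE 0.20, limma adjusted p = 0.00356), 1.79 for NEAT1 (SE 0.24, limma adjusted p = 0.00904) and 1.70 for GAS5 (SE 0.23, limma adjusted p = 0.00945). The other genes that rose were LINC00341, LINC00659, LINC00662, LINC00663, LINC00673, LINC00957 and SNHG5, with shared changes of 0.72 to 1.04. LINC00161 (-2.34), SNHG9 (-1.70), LINC00930 (-1.60), LINC01128 (-1.59), SNHG10 (-1.36) and LINC00839 (-1.27) fell the most, and LINC00263, LINC00883, LINC00641, LINC01134 and LINC00260 by 0.70 to 0.94. Without the experiment block no member passed, and with a pseudocount of 0.25 in place of 1 only LINC01133 did. Over its alternatives the limma adjusted p ranged from 6.03e-06 to 0.119 for LINC01133, from 5.71e-06 to 0.152 for MALAT1, from 0.000323 to 0.268 for NEAT1 and from 0.000361 to 0.135 for GAS5.

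Apart from LINC00987, the LINC genes with the 5 highest levels in each vehicle stayed short of the rule. LINC00657, which is NORAD, a cytoplasmic RNA that binds Pumilio proteins, was at 71.4 and 73.4 RPKM with SR2211, 47.0 and 68.7 FPKM with XY011 and 48.1 and 45.6 FPKM with ENZ. LINC00665 was at 31.5 and 29.3 RPKM, 48.7 and 32.3 FPKM, and 55.3 and 48.9 FPKM. LINC00963, known from the progression of prostate cancer cells to androgen independence, was at 20.3 and 30.1 RPKM, 25.4 and 15.8 FPKM, and 48.8 and 61.3 FPKM. LINC00478, now MIR99AHG, host of the microRNAs miR-99a and let-7c, was at 9.83 and 16.6 RPKM (ratio 1.69, interval 1.45 to 1.97), 5.93 and 5.39 FPKM, and 56.6 and 71.7 FPKM. LINC00674 was at 13.3 and 12.4 RPKM, 14.8 and 13.7 FPKM, and 65.2 and 60.2 FPKM.

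Genes with a LINC name that RefSeq now lists as coding stayed short of the rule with SR2211 and XY011. None of 8 passed with SR2211 (10.9% of all genes did) and none of 12 with XY011 (20.8%), while 3 of 11 were lower with ENZ (4.67%), namely LINC00444, LINC00634 and LINC00854. LINC00998, now SMIM30, was at 73.0 and 57.1 RPKM (ratio 0.783, interval 0.698 to 0.878), 65.2 and 47.7 FPKM, and 44.5 and 39.7 FPKM. LINC00493, now SMIM26, was at 38.9 and 39.1 RPKM, 42.4 and 62.8 FPKM, and 89.7 and 89.6 FPKM. LINC00116, now MTLN, which encodes a small protein of mitochondria, was at 10.0 and 7.93 RPKM, 3.20 and 1.91 FPKM, and 99.8 and 101 FPKM. Counting noncoding genes too, 43 members now carry another name. Of these none of 22 passed with SR2211, 2 of 29 were higher and 3 lower with XY011 (LINC00441 and LINC01021 higher, LINC00263, LINC00909 and LINC00925 lower), and 2 of 30 were higher (LINC00441 and LINC01057) and the 3 above lower with ENZ. RefSeq carries LINC00444 as an older name of SUCLA2, which the ENZ table lists on a line of its own.

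Long noncoding RNAs outside these names, a list of 14 of which 8, 6 and 7 were at 1 or more in the 3 pairs, gave 1, 1 and 0 calls, beside 10.9%, 20.8% and 8.35% of all genes. PCAT6, a prostate cancer-associated transcript, was higher with SR2211 at 3.19 and 8.50 RPKM and stood at 3.05 and 6.72 FPKM with XY011. PART1, a prostate androgen-regulated transcript, was lower with XY011 at 6.03 and 0.720 FPKM and stood at 1.77 and 0.808 RPKM with SR2211. TUG1 was at 66.0 and 56.7 RPKM, 55.8 and 45.3 FPKM, and 44.5 and 46.5 FPKM.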

How the data were processed

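The authors deposited RPKM values with Entrez identifiers for the SR2211 pair and FPKM values for the XY011 pair (2 decimals) and the ENZ pair (symbols only), per the file headers. Libraries were poly(A)-selected TruSeq libraries per the labels' protocols. The submitters' processing notes list the builds GRCh37 and hg19 and the tools Bowtie, BWA, Cuffdiff and Cufflinks. The tool behind each table, its annotation and its strand setting were not given in the sources used here. Genes without reads stand at 0.01 (SR2211), 0.001 (XY011) and 0 (ENZ).

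Small RNA genes were left out of the genes tested, and lines of the ENZ table with 1 symbol were summed. Pairs were compared by size, and limma 3.58.1 (R 4.3.3) was fitted to log2(value + 1) of 4 libraries over 12067 genes with a mean of 1 or more, with a prior of 5.29 degrees of freedom. That code was tested on simulated data. No label says that cultures were separate, so p-values rest only on the spread between these libraries and on the prior. Read numbers of the SR2211 pair are the smallest whole numbers that give the ratio of the RPKM values at a relative depth of 0.996, a ratio shared by 548 of 5242 low genes. They were found for 101 of 102 members, 9 of which implied a transcript under 200 nt and were left out. Any common multiple of them gives the same ratio with a narrower interval. The relative depth of the ENZ pair was 0.956 and that of the XY011 pair was not recovered.

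The text names GAS5, MALAT1, NEAT1, every SNHG member, the largest LINC changes and highest LINC levels of each pair, members past the rule in 2 pairs, members called by limma and renamed members. Of the last, those past the rule or at high levels are named and the others are given by count. Members, lists and this rule were chosen with earlier results of these data known. Alternatives were the pseudocount, the floor, the size rule, the scaling, limma options, and, added after seeing the data, members without small RNA genes and unsummed ENZ lines. Values of some list genes are not reported here.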

Additional observations from a re-analysis of the deposited data

Results flagged for a closer look

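GAS5 moved in opposite directions in the pairs. Its log2 change with ENZ was lower than that with SR2211 by a difference of -2.93 and lower than that with XY011 by a difference of -3.58. The libraries were at 105 and 273 RPKM (vehicle and SR2211), 105 and 429 FPKM (vehicle and XY011) and 915 and 310 FPKM (vehicle and ENZ). With 1 library per group this difference was not tested, and dose, experiment and table differ along with the compound.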

How the results depend on the processing

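Counts of members past the size rule depended on the pseudocount, the floor and the size itself. With a pseudocount of 0.25 the count went from 12 to 28 for SR2211 and from 35 to 53 for XY011. With a floor of 5 in either library it was 16 for XY011 and 10 for ENZ, against 35 and 16, with fewer genes tested. With a size rule of log2 1.5 it was 6 for SR2211, 10 for XY011 and 10 for ENZ. The shares of all genes past the rule in these settings are not given here. These counts therefore do not show whether members moved apart from the background. Under centring or quantile scaling the counts lay within 1.5 times the reported ones. SNHG9 (both scalings) and SNHG10 (centring) then dropped below the rule with SR2211, and LINC00641, LINC00899 and LINC00987 did so with XY011 under both. Quantile scaling also lost LINC00160, LINC00700, LINC00842 and LINC00887 there. The fit of SR2211 and XY011 together called 22 members, 1 with a pseudocount of 0.25 and 12 with a mean of 5 or more. Over all genes it called 1078 higher and 1607 lower of 12067. With a pseudocount of 0.25 it called 33 and 6 genes, and with a mean of 5 or more 914 and 1470 of 8743. With no replicate block, that is without the experiment as a block, limma called 0 members and 0 genes, while 2339 genes had an unadjusted p under 0.05. The cause was not tested. No paired analysis by replicate number was possible because each group has 1 library. Leaving out a library was not possible either, since it leaves a pair without its partner. Many members lay under 5 in both libraries (53 of 102, 81 of 138 and 55 of 110), where a few reads decide a call.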
